A study of Arabidopsis thaliana with 4 samples.

Results

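The beta-glucosidases named BGLU are a large family of plant enzymes, and 7 of them could be followed in inflorescences of the Arabidopsis thaliana mutant pistillata set against wild-type inflorescences. They were chosen by name: a gene entered when its symbol in the gene table was BGLU and a number, and when it had a probe that lists no other gene and carries a value on every array. The gene table holds 40 such symbols. Of these genes, 7 met the rule, 12 were listed only by probes shared with other genes, and 21 were listed by no probe in the annotation used here and are not analysed here. The 7 genes stand among 5386 genes measured the same way. The family was picked, and BGLU36 named for it, with the ratios of this comparison already known, so the ratios and calls below describe these arrays and support nothing beyond them.

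PISTILLATA is a floral organ identity gene of the MADS-box class, and flowers that lack it form neither petals nor stamens. Total RNA was hybridised to 4 arrays of long oligonucleotides with 2 channels each. The genotypes were hybridised together on each array, so each value compares pistillata with wild type directly. The pistillata allele, the wild-type strain, the age of the plants, and whether the 4 arrays hold separately grown material are not stated in the labels used here, so the spread between arrays may be technical.

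Beta-glucosidases of this family, glycoside hydrolase family 1, remove a glucose unit from small molecules that plants store as glucosides. The products include free hormones, building blocks of lignin, coumarins and, in the myrosinase branch of the family, the defence compounds released from glucosinolates. Some members act in the vacuole, and others are stored in ER bodies, compartments of the endoplasmic reticulum, apart from their substrates until cells are damaged. Flowers matter for the family because at least one member, ATA27, was first known as a gene of the anther.

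The genes SWEET8, TUA1, SHT and ATA20, which are active in anthers, gave each array its sign, because the deposited ratios did not follow the channel order in the labels. Arrays 1 and 4 were multiplied by -1, which places these genes on the wild-type side. Values are therefore log2 of pistillata over wild type, in a direction that is likely and not settled, and a ratio of 1 is a 2-fold difference. With the common sign exchanged, every lower value below would be a higher one by the same amount.

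One gene of the family stood far from the others. BGLU36 (AT1G51490), which belongs to the myrosinase branch and is also called TGG6, had log2 ratios of -4.93, -4.40, -4.56 and -3.97 on arrays 1 to 4. All 4 values lay far below 0 and within about 1 log2 unit of each other, and none was at the limit of the table. The mean was -4.47 ± 0.40 (SD, n = 4), which is 22.1-fold lower in pistillata. In bulk tissue, fewer cells that contain a transcript and less transcript per cell cannot be told apart.

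BGLU36 fell by the test across all genes, limma with an adjusted p under 0.05, and it was the only one of the 7 to pass. In that test 8.54% of all 5386 genes were called, 5.79% as lower and 2.75% as higher. At an unadjusted p under 0.05, 2 of the 7 genes passed, BGLU36 and BGLU42, where 30.8% of all genes did. Only 15 of all genes had a lower mean than BGLU36. BGLU36 was also the only one of the 7 below -1 on every array, a pattern that 3.84% of all genes showed.

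**Figure D1:**
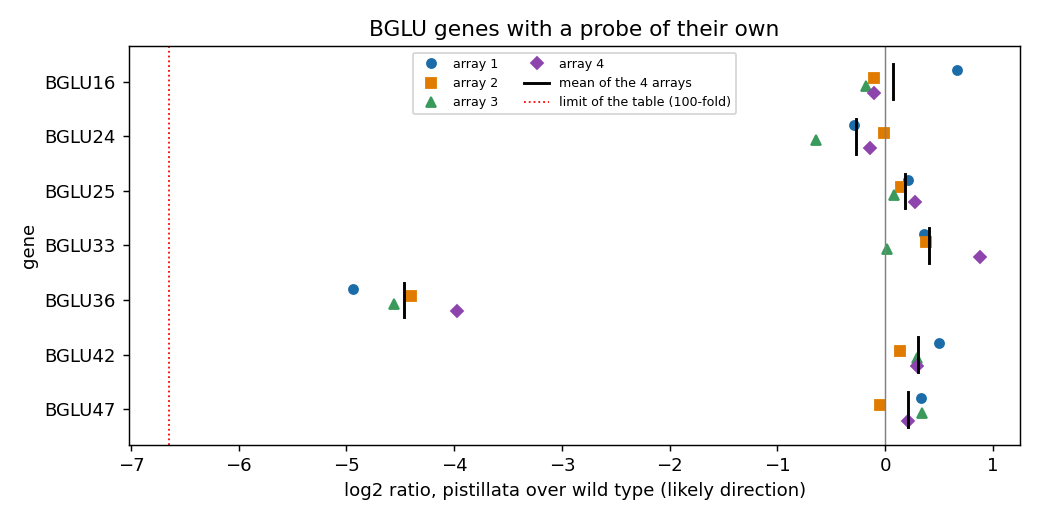
Log2 ratio of pistillata over wild type for the 7 BGLU genes, with 1 symbol for each array, a bar at the mean and a dotted line at the limit of the table, a ratio of 100. BGLU36 lies between -4.93 and -3.97 on the 4 arrays, and the 6 other genes lie between -0.64 and 0.88.

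The 6 other genes differed little between the genotypes, and 0 of the 6 were called. Their means ran from -0.27 to 0.41, and their single values from -0.64 to 0.88. The 95% confidence intervals of all 6 means lay inside a 2-fold difference in either direction, with -0.63 as the lowest bound and 0.84 as the highest. Between BGLU36 and the next lowest of the 7 genes there was a gap of 4.20 log2 units. The median of all 7 genes was 0.18, beside 0.16 for all genes on the arrays. With every array's median set to 0 these were 0.065 and 0.049, and BGLU25 was at 0.065, BGLU47 at 0.094 and BGLU33 at 0.29.

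**Figure D2:**
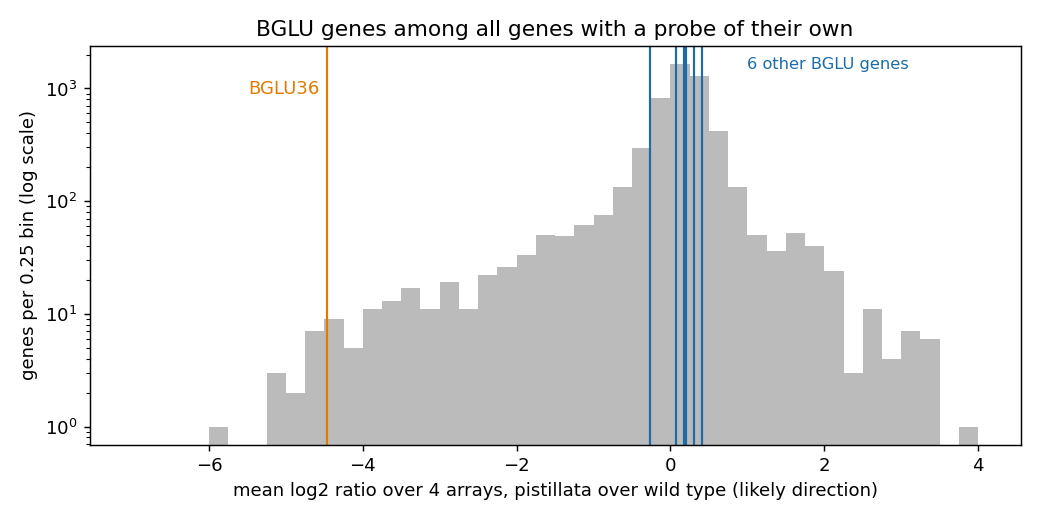
Histogram of the mean log2 ratio over the 4 arrays for 5386 genes, with the number of genes on a log scale and vertical lines at the 7 BGLU genes. The line for BGLU36 at -4.47 stands in the left tail, and the 6 other lines stand between -0.27 and 0.41, around the median of all genes at 0.16.

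BGLU33 (AT2G32860) encodes a vacuolar enzyme that frees abscisic acid from its glucose ester. Its log2 ratios were 0.36, 0.38, 0.02 and 0.88 on arrays 1 to 4, and its mean of 0.41 ± 0.35 (SD, n = 4) was the highest of the family. All 4 values were above 0, but they were widely spread, and the interval of the mean, -0.02 to 0.84, included 0.

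BGLU42 (AT5G36890) acts in roots, where it takes part in the release of coumarins and in resistance induced by soil bacteria. It had ratios of 0.50, 0.14, 0.29 and 0.30 on arrays 1 to 4, with a mean of 0.31 ± 0.15 (SD, n = 4). The values were all above 0, with an interval of 0.04 to 0.58, and the gene was not called after adjustment over all genes. With every array's median set to 0 its mean was 0.19. A mean above 0 was common on these arrays, where 68.8% of genes had one.

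BGLU47 (AT4G21760) belongs to the branch whose members BGLU45 and BGLU46 cut the glucosides of lignin precursors. Its ratios were 0.34, -0.05, 0.34 and 0.21 on arrays 1 to 4, with a mean of 0.21 ± 0.18 (SD, n = 4). The value on array 2 lay on the other side of 0 from the rest.

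BGLU25 (AT3G03640) and BGLU24 (AT5G28510) fall in the same branch as PYK10, the main beta-glucosidase of ER bodies. BGLU25 had the tightest values of the family, 0.21, 0.14, 0.09 and 0.27 on arrays 1 to 4, with a mean of 0.18 ± 0.08 (SD, n = 4). BGLU24 had ratios of -0.29, -0.01, -0.64 and -0.14 on arrays 1 to 4, with a mean of -0.27 ± 0.27 (SD, n = 4). It was the only gene besides BGLU36 with a mean below 0, and its interval of -0.63 to 0.09 included 0. BGLU25, BGLU33 and BGLU42 were above 0 on all 4 arrays, as were 30.8% of all genes.

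BGLU16 (AT3G60130) was the only one of the 7 with 2 probes of its own. The mean of the probes was 0.67, -0.10, -0.17 and -0.11 on arrays 1 to 4, which gave 0.07 ± 0.40 (SD, n = 4). The positive mean rested on array 1 alone: without that array it was -0.13, and with every array's median set to 0 it was -0.04. The first probe averaged 0.38 and the second -0.23, a difference of 0.61. Among the 281 genes with several probes of their own the median difference was 0.23, and that of BGLU16 ranked 58th from the largest.

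The anther beta-glucosidase ATA27 (AT1G75940) carries the name BGLU20 as a synonym and so lies outside the 7 genes. It is a gene of the tapetum, the anther layer that nourishes pollen. Its first probe had ratios of -6.49, -5.57, -6.31 and -6.64 on arrays 1 to 4, the last of which is at the limit of the table and only a bound. The mean of -6.25 is therefore also a bound, and the signal was at least 76.4-fold lower in pistillata. By the test over all 26156 probes, in which 10.2% were called, 7.23% as lower and 2.98% as higher, this probe was called.

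The second probe of ATA27 told otherwise. It had ratios of 0.05, 1.52, 0.32 and 0.85 on arrays 1 to 4, all above 0, with a mean of 0.68 ± 0.65 (SD, n = 4), and it was not called. The means of the probes lay 6.94 log2 units apart, the largest difference among the 281 genes with several probes of their own. The mean over both probes, -2.79, stood at neither of them. No probe sequences were used here, so where each probe lies on the transcript was not tested.

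**Figure D3:**
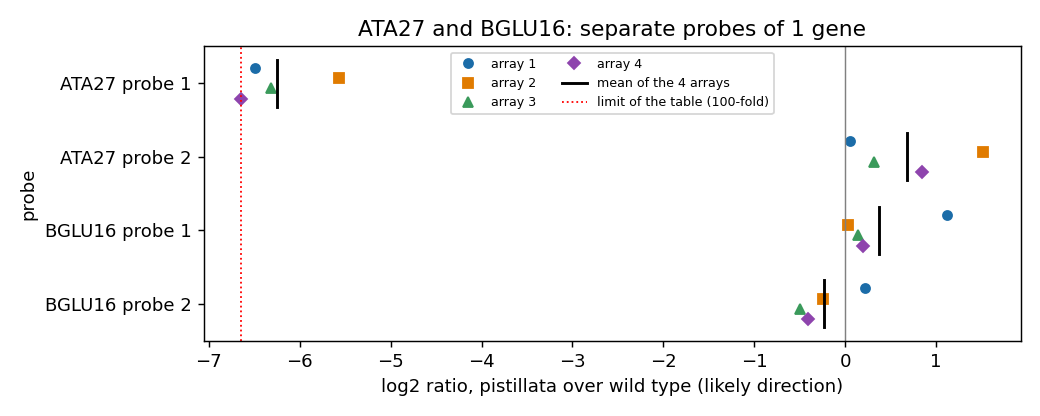
Log2 ratios of the separate probes of ATA27 and of BGLU16, with 1 symbol for each array, a bar at the mean and a dotted line at the limit of the table. The first ATA27 probe lies at or below -5.57 and the second at or above 0.05, whereas the probes of BGLU16 overlap.

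Shared probes reached further genes of the family, although a probe that lists several genes names none of them. There were 16 such probes, all with values on every array. Only 1 of the 16 was called, where 10.2% of all probes were, and 5 had an unadjusted p under 0.05 by limma, where 30.6% of all probes did. Means were above 0 for 9 of them and below 0 for 7, and 9 had values on both sides of 0. Their median was 0.03, beside 0.14 for all probes.

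The called probe lists BGLU40 and BGLU41. Its ratios were -2.93, -2.96, -3.02 and -2.72 on arrays 1 to 4, a narrow band far below 0, and it was the only one of the 16 below -1 on every array, as were 4.36% of all probes. The mean of -2.91 ± 0.13 (SD, n = 4) is 7.51-fold lower in pistillata. A further probe that lists BGLU40, BGLU41 and BGLU42 had ratios of 0.07, 0.15, 0.04 and 0.58, with a mean of 0.21 ± 0.25 (SD, n = 4). The ranges of these probes did not overlap. The mean of 0.21 lay near the 0.31 of the probe for BGLU42 alone and near the median of all probes, 0.14. Which of its genes each probe reads was not tested.

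Probes for other branches moved less. BGLU21 and BGLU22, root enzymes that cut the coumarin glucoside scopolin, share a pair of probes, with means of 0.01 and -0.60. The second of these had all 4 values below 0, from -0.83 to -0.28, and missed the threshold; it was called as lower with every array's median set to 0, at -0.71, when probes with a capped value were left out, and with a random block for pairs of arrays. No label gives those pairs, and the correlation estimated within them was -0.30. A probe that also lists PYK10 had a mean of 0.30 ± 0.09 (SD, n = 4), above 0 on all 4 arrays.

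BGLU43 and BGLU44, of which BGLU44 cuts mannosides, share 3 probes with means of 0.30, 0.93 and 0.14. The highest of them had ratios of 1.62, 0.84, 0.94 and 0.31 on arrays 1 to 4 and was not called; it was called as higher when probes with a capped value were left out and with the random block. The probes for BGLU45 and BGLU46 disagreed in sign, with means of -0.35 and 0.43, and each kept its sign on all 4 arrays. A further probe, which adds BGLU47, had a mean of -0.41 ± 0.69 (SD, n = 4) with values from -1.25 to 0.44.

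BGLU28, which breaks down glucosinolates when sulfur is scarce, shares a pair of probes with BGLU29, with means of 0.05 and 0.22 and array 3 below 0 on both. The probe for BGLU24, PYK10 and AT5G48175 had a mean of -0.18 ± 0.51 (SD, n = 4). The probes for BGLU31 and BGLU32 were the least steady. One had ratios of 0.59, 0.59, 1.39 and -6.64 on arrays 1 to 4, the last at the limit of the table, and the other ran from -1.13 to 0.97.

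**Figure D4:**
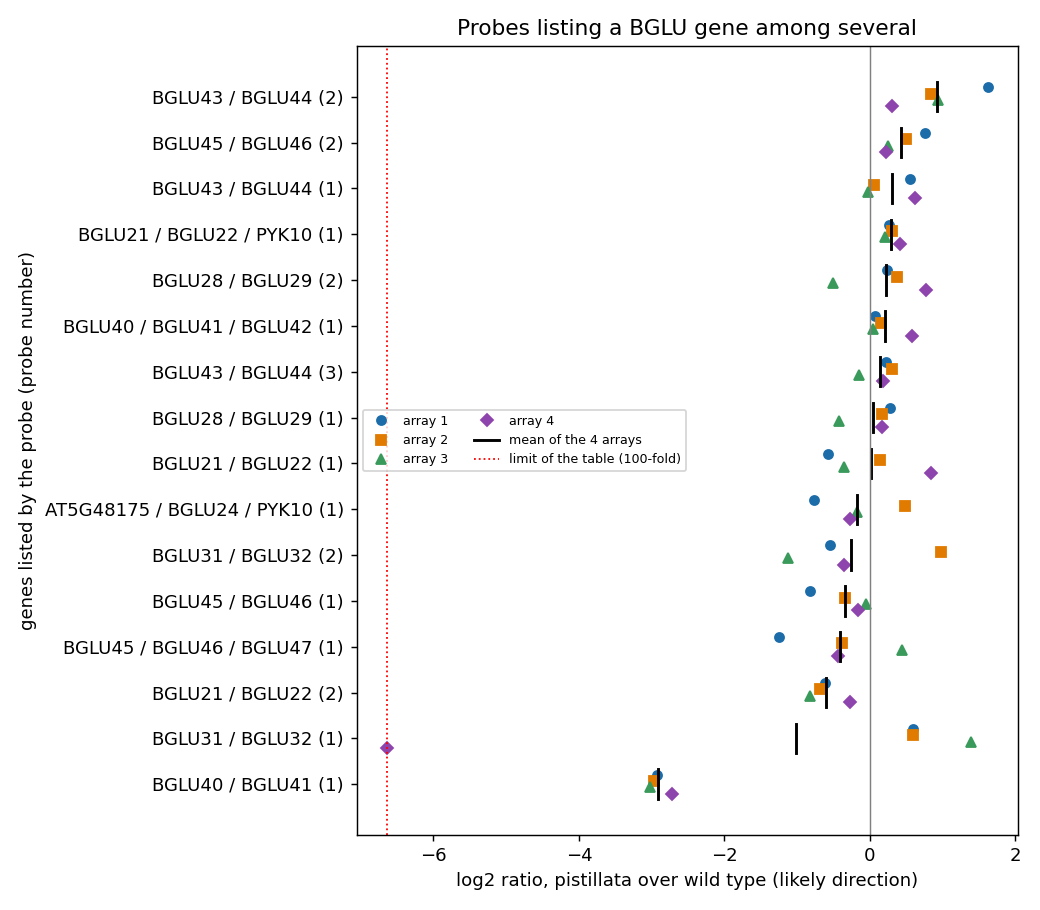
Log2 ratios of the 16 probes that list a BGLU gene among several, in order of their means, with 1 symbol for each array, a bar at the mean and a dotted line at the limit of the table. The BGLU40 and BGLU41 probe lies between -3.02 and -2.72, and 1 value of a BGLU31 and BGLU32 probe sits at the limit of -6.64.

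The values of the low probes before any array was turned are given next. As deposited, BGLU36 had log2 ratios of 4.93, -4.40, -4.56 and 3.97 on arrays 1 to 4. The BGLU40 and BGLU41 probe had 2.93, -2.96, -3.02 and 2.72, and the first ATA27 probe 6.49, -5.57, -6.31 and 6.64. All of them set arrays 1 and 4 against arrays 2 and 3, as the anther genes do, and none followed the channel order of the labels, which sets arrays 1 and 3 against arrays 2 and 4. Turned by the labels, BGLU36 averaged 0.20 and limma called 0 of all genes, with 18 at an unadjusted p under 0.05.

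**Figure D5:**
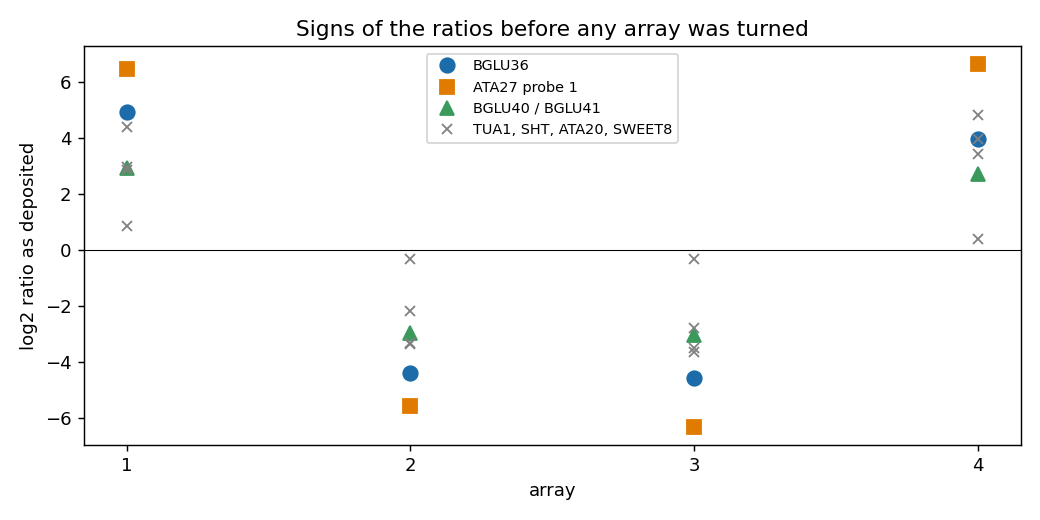
Log2 ratios as deposited on each of the 4 arrays, before any sign was turned, for BGLU36, the first ATA27 probe, the BGLU40 and BGLU41 probe and the anther genes that set the signs (crosses). All are above 0 on arrays 1 and 4 and below 0 on arrays 2 and 3. For the BGLU and ATA27 probes this order follows from their choice as low on every turned array.

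Markers of stamens, petals, carpels and nectaries were read beside BGLU36, and those of stamens and petals were mixed. Of 10 tapetum and anther markers listed, only 3 had a probe of their own, and the others gave no values. All 3 were called as lower, with means of -3.71 (SWEET8), -3.66 (SHT) and -2.96 (ATA20), where 5.79% of all genes were. These 3 markers also set the signs of the arrays, so their direction is no separate result. Of 3 shared probes that list a tapetum marker, 2 were called as lower. Both list SWEET8, which set the signs, so they add no separate marker. The probe that lists SHT with HCT, GLC and AT5G57840 was at 0.47, above 0 on all 4 arrays and not called. The 7 shared probes that list a pollen marker were all called as lower, with means from -5.52 to -3.41. They list VGD1, PPME1, or ANX1 with ANX2, each beside other genes, and several list the same marker. Across all probes, 7.23% were called as lower. TUA1, the only 1 of 8 listed pollen markers with its own probe, was at -0.47 and was not called. Of 3 petal markers listed, only the scent gene BSMT1 was on a probe, and 2 shared probes list it. The probe that also lists JMT, NAMT1 and AT4G36470 was at -2.04 and was called as lower. The other, which also lists NAMT1, AT5G66430 and AT5G04380, was at 0.23 and was not called. The 2 probes of JMT alone had means of -3.14 and -2.33, and which gene the low shared probe reads was not tested.

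SWEET9, the only 1 of 2 listed nectary markers on a probe, was at -4.88 and was called as lower. Of 6 carpel and ovule markers listed, only INO and SPT were on any probe. INO was at -0.20 over its 3 own probes, whose means ran from -0.54 to 0.37, and was not called. The 3 shared probes of the carpel and ovule list were at 0.49 for INO with YAB2 and YAB5 and at 0.65 and 0.76 for SPT with ALC, above 0 on all 4 arrays. None of them was called (0 of 3). By limma 3 had an unadjusted p under 0.05, where 30.6% of all probes did. The probes for SPT and ALC list the same pair, so the 3 are not separate markers. The part of any of these tissues in the ratio of BGLU36 was not tested.

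By the 4 ratios, the gene nearest to BGLU36 was AT3G46750, with -5.06, -4.38, -4.33 and -4.06 on arrays 1 to 4 and a distance of 0.28 log2 units over the 4 arrays. AT1G13970 followed at a distance of 0.84, SWEET9 at 0.91, AT5G62750 at 1.06 and AT1G75870 at 1.13. These distances are descriptions over 4 arrays that share the sign set by the anther genes.

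Genes close to BGLU36 in the gene table gave few values. BGLU35, the myrosinase called TGG5, lies 2 genes away and had no probe in the annotation used here. On the other side, Y14, an exon junction protein that also lies 2 genes away, was at 0.21 and AT1G51530 at -0.03, and neither was called. In the gene table, 22 of 47 genes with a BGLU number as symbol or synonym stand directly next to another of them, and BGLU36 is not among these.

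Other genes of the pathway were sparsely measured. Of the 7 family genes known by another symbol, which are TGG1, TGG2, TGG3, PYK10, PEN2, DIN2 and ATA27, only 1, ATA27, had a probe of its own. None of 24 listed partners of ER bodies and myrosinases had one (0 of 24). The 3 shared probes that list NAI1, JAL22 or JAL23 were at -0.35, 0.39 and -0.29. Limma called 0 of the 3, where 10.2% of all probes were called. At an unadjusted p under 0.05 there were 0, where 30.6% of all probes passed. The probes at 0.39 and -0.29 both list JAL22 with JAL23, so the 3 are not separate partners. NAI1 is the transcription factor behind ER bodies, and the JAL proteins are lectins found with PYK10.

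Of 11 enzymes that attach glucose, or a related sugar, to compounds that such hydrolases may cut, 3 had a probe of their own and limma called 0 of the 3; 0 had an unadjusted p under 0.05, where 30.8% of all genes did. UGT74B1, which makes the core of glucosinolates, had ratios of 0.22, 0.56, 0.50 and -0.23, with a mean of 0.26. UGT78D1, a flavonol glycosyltransferase, was at 0.18, and UGT71C5, which makes the abscisic acid glucose ester that BGLU33 can cut, at -0.04. Of 6 shared probes for this list, 3 had an unadjusted p under 0.05, where 30.6% of all probes did, and 1 was called, where 10.2% of all probes were. The called probe was lower and lists UGT72E1, UGT72E2 and UGT72E3, enzymes that attach glucose to lignin precursors. It had ratios of -0.73, -1.90, -1.66 and -1.68 on arrays 1 to 4 and a mean of -1.49 ± 0.52 (SD, n = 4). The probe for UGT72E1 and AT4G36770 had the other sign, with 0.73, 0.50, 0.40 and 0.04 on arrays 1 to 4, and was not called.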

How the data were processed

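The authors deposited log2 ratios of the channels of each of 4 two-channel arrays. Per the labels, the values were normalized as in an earlier publication; the dyes, the background correction, the numerator and the centring are not stated there. No value exceeds 6.64 in size, a ratio of 100. Signal strengths are not part of the table, so how far a probe stood above background cannot be read, and the number of arrays limits the precision.

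Of the rows, 459 empty or control spots were left out. Genes were named from probes that list 1 gene in the platform annotation (5784 of 26474 gene probes), with symbols from a gene table of assembly TAIR10.1, which matched 5415 of 5443 genes. Probes of 1 gene were averaged. Arrays 1 and 4 were multiplied by -1, as the median of SWEET8, TUA1, SHT and ATA20, genes of the anther, was 2.91 and 3.72 there and -2.77 and -3.15 on arrays 2 and 3.

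All genes with values on all 4 arrays were fitted with limma 3.58.1 in R 4.3.3 (lmFit with an intercept, eBayes, two-sided, Benjamini-Hochberg over all genes, threshold 0.05), and probes likewise over all probes. The fit was tested on simulated data. The members, the lists and the genes named (all BGLU genes, the pathway lists, the 5 genes nearest to BGLU36 by Euclidean distance and tissue markers) were chosen with earlier results of these data known. No sequences are printed, and a planned description of proteins and promoters was not made.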

Additional observations from a re-analysis of the deposited data

Results flagged for a closer look

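In 35 sets of 4 values, 4 had a value far from the other three, and chance gives about 1 in 20. BGLU16 was at 0.67 on array 1, where its gap to the nearest other array was 0.917 of the range of its values. The first probe of BGLU16 was at 1.12 on array 1, with a gap of 0.845 of the range, so the gene and probe values are not separate cases. The first probe for BGLU28 and BGLU29 was at -0.43 on array 3, with a gap of 0.842 of the range. The first probe for BGLU31 and BGLU32 was at -6.64 on array 4, the limit of the table, with a gap of 0.900 of the range.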

How the results depend on the processing

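BGLU36 was called and lower under 13 of 15 alternatives, at -4.68 to -4.31, and 1 of the BGLU genes was called under 15 of 16. The exceptions changed signs. Turned by the labels' channel order, 0 BGLU genes and 0 of all genes were called, and the means were 0.20 for BGLU36, -0.21 for BGLU16, -0.011 for BGLU42, 0.10 for UGT71C5, -0.13 for UGT74B1, -0.10 for UGT78D1 and -0.16 for ATA27. With the common sign exchanged, 5 BGLU genes were below 0, their median was -0.18, and the means were 4.47 for BGLU36, -0.072 for BGLU16, 0.27 for BGLU24, -0.18 for BGLU25, -0.41 for BGLU33, -0.31 for BGLU42, -0.21 for BGLU47, 2.79 for ATA27, 0.036 for UGT71C5, -0.26 for UGT74B1 and -0.18 for UGT78D1.

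Among all 5386 genes, 460 (8.54%) were called. Without probes that hold a capped value, 726 of 5154 genes (14.1%) were called. With a random block for each pair of arrays (1 with 2, 3 with 4) there were 1047 of 5386 (19.4%). No label gives these pairs, and the estimated correlation was -0.30. At an adjusted p of 0.01 there were 164 genes (3.04%). Among all 26156 probes, 2669 (10.2%) were called. Leaving out each array gave 180 to 222 genes. Centring each array moved the median of all genes to 0.05, against 0.16 without it, and the lower share of the calls to 82.5%, against 67.8%. That share was 42.6% with the random block (446 lower, 601 higher), 57.2% without capped probes and 100% with trended and robust moderation (311 lower, 0 higher, by limma, with 1851 genes at an unadjusted p under 0.05). After centring, the BGLU median was 0.065, BGLU25 0.065, BGLU47 0.094, BGLU42 0.19, BGLU33 0.29 and BGLU24 -0.39, and BGLU16 was at -0.042, at -0.095 with scaling as well, and at -0.13 to 0.15 as each array was left out, with -0.13 without array 1. ATA27 was at 0.68 without its capped probe. None of the 6 other BGLU genes was called in 83 values under the alternatives, of which 0 passed. Of the shared probes, 0 to 3 were called. Each array pairs the genotypes itself, so the fit of the 1 group of ratios against 0 was already a paired analysis.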
